A study of Mus musculus with 12 samples.

Results

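The coagulation and fibrinolysis genes described here are 9 genes through which brain endothelium can limit, start or dissolve a blood clot. They were chosen by symbol: Thbd, Procr and Tfpi for anticoagulant proteins, Vwf, F8 and F3 for procoagulant proteins, and Plat, Serpine2 and Anxa2 for fibrinolysis. All 9 were found among the 24015 gene symbols of the table, and all 9 had a mean of at least 10 normalized counts, the minimum for testing, which left 12777 genes in all. F8 passed that minimum only narrowly. RNA was sequenced from brain endothelial cells of wild-type C57BL/6 mice aged 19 months (old, 6 samples) or 3 months (young, 6 samples). For each sample the hippocampi and cortex of 2 mice were pooled and dissociated, and endothelial cells were collected by flow cytometry. Samples carry the numbers of their titles, 1, 2, 3, 4, 7 and 9 in old and 1, 2, 3, 4, 5 and 9 in young. No treatment, transgene or disease model separates the groups, so age is the only stated difference between them.

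Clotting starts when tissue factor, the product of F3, meets factor VII of the plasma, and it ends in thrombin, the protease that turns fibrinogen into fibrin. Endothelial cells hold this in check at their surface: thrombomodulin (Thbd) binds thrombin and lets it activate protein C, the endothelial protein C receptor (Procr) presents protein C to that complex, and tissue factor pathway inhibitor (Tfpi) blocks the first step. Fibrin is later dissolved by plasmin, which tissue plasminogen activator (Plat) makes from plasminogen. Brain capillaries are known for low thrombomodulin and for tissue factor in the astrocytes that wrap them.

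Of the 9 genes, 2 passed the test between ages, Thbd and Serpine2, and both fell with age. Thbd was 1.92-fold lower in old samples, and Serpine2, which encodes an inhibitor of thrombin and plasminogen activators, was 2.33-fold lower. Vwf and F3 had higher means in old samples without passing over the 12 samples. Both passed once 3 samples described below were left out, which were set apart by a trait of these same data. Procr, Tfpi, F8, Plat and Anxa2 did not pass in either case. Over all genes tested, 6.94% passed (limma, adjusted p below 0.05), 3.73% higher and 3.21% lower in old. The median log2 difference was -0.13 over the 9 genes and -0.01 over all genes tested.

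**Figure D1:**
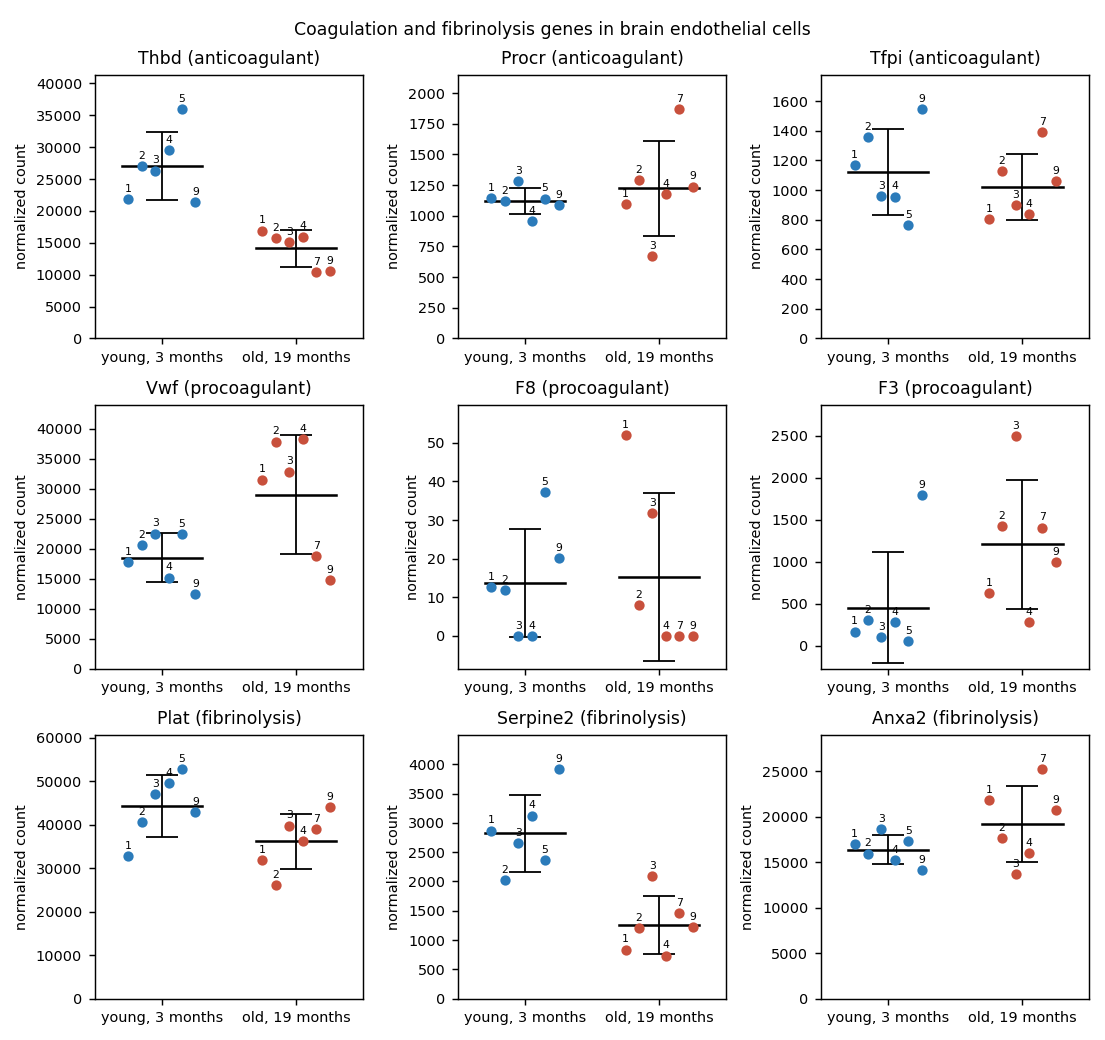
Normalized count (linear axes) of each of the 9 genes in each sample, young in blue and old in red, with the title number beside each point; long bars are means and error bars are SD (n = 6 each). Thbd is separated by age, Serpine2 overlaps only through old 3, and young 9 stands above the other young samples for F3.

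The samples held 25809499 to 40393814 reads in genes. The labelled cell type was checked against 13 endothelial markers, which summed to 655235 to 803860 normalized counts in old and 777467 to 806225 in young samples. Every old sum but that of old 4 lay below the lowest young sum. Of these markers 1 passed the test, beside 6.94% of all genes tested: Cdh5, the junction protein VE-cadherin, was lower in old (log2 difference -0.36, limma adjusted p = 0.0234). Of the 13, 3 had a positive log2 difference, and the median was -0.21, against -0.01 over all genes tested. An unadjusted p under 0.05 (limma) was found for 5 of them, beside 3043 of all 12777 genes tested. Markers of other cells were at lower levels and differed between samples. Astrocyte markers had a median sum of 23415 in old and 8959 in young, those of pericytes and smooth muscle 2804 and 8203, and those of platelets 336 and 248. Oligodendrocyte markers had median sums of 18054 in old and 16433 in young, and those of red cells 2578 and 4254. For microglia they were 1738 and 1531, and for fibroblasts 201 and 335. Neuronal markers summed to at most 999 in any sample, and Rbfox3, a defining neuronal gene, was at 0 in some samples of each age. In 3 samples (old 7, old 9 and young 9) values fell with the GC content of the transcript more than in the other 9. Their slopes were -0.08, -0.18 and -0.16 log2 units per 10 points of GC, against -0.03 to 0.13. They are called the low-slope samples below, and results that they touch are given with and without them. They were set apart by slopes computed from these same data, and old 7 lay nearer to young 2 (-0.03) than to young 9. In such bulk samples fewer cells of a type and less RNA per cell cannot be told apart. Nothing in the labels states that each pool came from its own animals, and the p-values refer to the spread among the samples as deposited, which may be technical.

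Thbd, at chromosome 2:148404466-148408188 (minus strand of GRCm38), encodes thrombomodulin and was the gene most clearly separated by age. Its normalized count ran from 10453 through a median of 15378 to 16908 in old samples and from 21403 through 26682 to 36005 in young samples. Every old sample lay below every young sample, and old 7 and old 9 were the lowest of all. The means were 14114 ± 2848 and 27040 ± 5394 (SD, n = 6 each). The log2 difference of old minus young was -0.94 (SE 0.15, 95% confidence interval -1.27 to -0.61, limma adjusted p = 0.00207). An exact permutation test over the 924 labelings gave p = 0.00216, the smallest it can give. Groups that do not overlap were found for 4.29% of all genes tested. By edgeR's quasi-likelihood test on whole reads the difference was -0.93 (adjusted p = 0.00265), in a fit where 6.05% of genes passed and Thbd and Serpine2 were again the 2 of these 9 that did. Without old 7, old 9 and young 9, Thbd had 15912 ± 765 in 4 old and 28167 ± 5180 in 5 young samples, a log2 difference of -0.81 (adjusted p = 0.00374, limma), and the groups still did not overlap. The astrocyte marker level moved with age as well. With that score as a covariate the Thbd difference was -0.76 and did not pass (limma adjusted p = 0.0753).

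Procr, at chromosome 2:155751117-155755471 (plus strand), encodes the receptor that works with thrombomodulin on protein C. It ran from 671 through 1209 to 1871 in old and from 959 through 1130 to 1283 in young samples. Old samples were both the lowest (old 3) and the highest (old 7), and the young samples lay inside that range. The means were 1224 ± 387 and 1123 ± 104 (SD, n = 6 each), with a log2 difference of 0.07 and an interval of -0.32 to 0.46 (limma adjusted p = 0.859). The interval spans 0, and the sign of the difference turned without the 3 low-slope samples (-0.13).

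Tfpi, at chromosome 2:84432855-84476775 (minus strand), encodes the inhibitor of the tissue factor and factor VIIa complex. It ran from 805 through 979 to 1388 in old and from 762 through 1062 to 1547 in young samples. The groups overlapped almost entirely. The log2 difference was -0.13 with an interval of -0.51 to 0.25 (limma adjusted p = 0.706).

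The receptors of the protein C pathway differed from each other across ages. The ratio of Thbd to Procr within a sample, which does not depend on the size factor, had a geometric mean of 11.8 in old and 23.8 in young samples. It ran from 5.58 to 22.4 in old and from 19.1 to 31.6 in young, so the groups overlapped slightly. The log2 difference of the ratio was -1.01 (two-sided exact permutation p = 0.00866, adjusted p = 0.0216 over 4 ratios). Without the 3 low-slope samples it was -0.68 and no longer passed (exact permutation, adjusted p = 0.0741).

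Vwf, at chromosome 6:125546774-125686679 (plus strand), encodes von Willebrand factor, which captures platelets at an injured wall and is stored in the Weibel-Palade bodies of endothelium. It ran from 14776 through 32208 to 38296 in old and from 12484 through 19170 to 22545 in young samples. Old 1, 2, 3 and 4 lay above every young sample, while old 7 and old 9 lay among the young ones. The means were 29015 ± 9942 and 18504 ± 4097 (SD, n = 6 each). The log2 difference was 0.59 (interval 0.10 to 1.09), which did not pass (limma adjusted p = 0.132; exact permutation p = 0.0541). By edgeR it was 0.66 (adjusted p = 0.105).

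Old 7 and old 9 are low-slope samples, and the GC content of the longest Vwf transcript is higher than that of 84.7% of tested genes. Without the 3 low-slope samples Vwf had 35145 ± 3438 in 4 old and 19708 ± 3179 in 5 young samples and the groups did not overlap. The log2 difference was then 0.85 (interval 0.57 to 1.12, limma adjusted p = 0.00322). The exact permutation p was 0.00794, the smallest that 126 labelings can give. Leaving these samples out removed old 7 and old 9, the lowest old values of Vwf, and young 9, the lowest young value. The lack of overlap therefore follows from which samples were removed. In that reduced fit 7.08% of all genes passed, and 10.5% of genes did not overlap between the ages. Of the 9 genes described here 4 passed in it (Thbd, Vwf, F3 and Serpine2) and 2 did not overlap (Thbd and Vwf). Among the low-slope samples themselves, old 7 and old 9 had 18733 and 14776 against 12484 in young 9, a log2 difference of 0.41. With a term for the 3 samples beside age, a setting added after seeing the data, the difference was 0.75 (limma adjusted p = 0.00189).

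**Figure D2:**
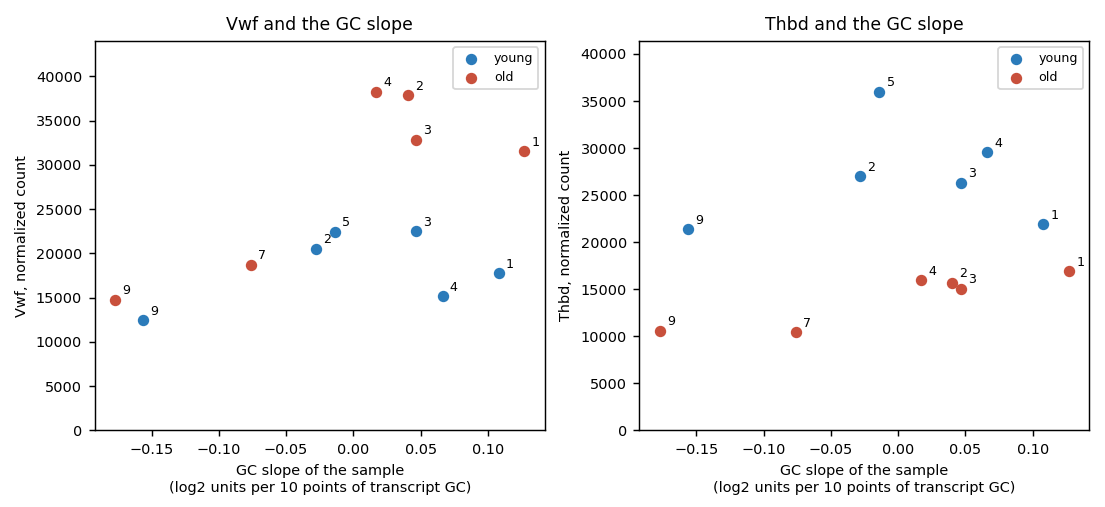
Normalized count of Vwf (left) and Thbd (right) against the GC slope of each sample, in log2 units per 10 points of transcript GC content, young in blue and old in red with title numbers. Old 7 and old 9 have the lowest old values of both genes, and every old Thbd value lies below every young one.

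Across the 12 samples Vwf and the GC slope had a Pearson r of 0.56 (permutation p = 0.0572, adjusted p = 0.114 over 12 relations computed) and a Spearman rho of 0.38 (permutation p = 0.225). Without the 2 samples farthest from the median slope r was 0.15, so the relation rests on those samples. For Thbd r was 0.33 (permutation p = 0.302). Within the old samples r was 0.86 for Vwf (exact permutation p = 0.0667) and 0.91 for Thbd (exact permutation p = 0.0333, adjusted p = 0.0799), and within the young samples 0.44 and 0.16. Without the 2 samples farthest from the median slope, r for Vwf turned to -0.82 in old and -0.58 in young samples. For Thbd it was then 0.71 in old and -0.28 in young. Leaving out those samples also narrows the range of slopes and leaves few samples in each age. These values therefore cannot decide whether Vwf is related to the GC slope within an age.

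Vwf can also differ with the kind of vessel sampled, since arteries and veins carry more of it than capillaries. Arterial endothelial markers summed to 130746 to 165249 in old and 90892 to 119861 in young samples, and 4 of 14 were higher in old, led by Alpl, an alkaline phosphatase (log2 difference 0.86, limma adjusted p = 0.000545). Venous markers summed to 30259 to 40400 and 38909 to 53849, with 3 of 11 lower in old. Capillary markers summed to 224919 to 359052 and 337739 to 454140, also with 3 of 9 lower in old. These counts are of markers past the threshold, and over all genes tested 3.73% passed higher and 3.21% lower in old. Platelets store von Willebrand factor as well. Platelet markers summed to 120 to 595 in old and 168 to 426 in young samples, and the 6 tested had a median log2 difference of 0.38, with none past the threshold. The part of vessel kind or of platelets in the Vwf and Thbd values was not tested.

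F8, on the X chromosome at 75172715-75382615 (minus strand), encodes factor VIII, which travels in plasma bound to von Willebrand factor. It had 0 to 59 reads per sample and was at 0 in old 4, 7 and 9 and in young 3 and 4. A count of 0 allows up to 3 reads, or 2.30 to 3.46 normalized counts in those samples. Its mean was 15.3 ± 21.8 in the old group (SD, n = 6) and 13.6 ± 13.99 in the young group (SD, n = 6), and a difference was not detectable at this depth (log2 difference -0.53, interval -3.37 to 2.32, limma adjusted p = 0.846; edgeR 0.15, adjusted p = 0.96). The gene overlaps Fundc2 on the opposite strand, which had 615 to 1212 normalized counts, and the strand used in counting is not given in the sources used here.

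F3 and Serpine2 had the largest absolute log2 differences of the 9 genes, and the promoters of both are shown for that reason. Each is the 300-base RefSeq window from 250 bases before to 50 bases after the start that RefSeq gives in GRCm38.p6, read on the gene's own strand; the study's own build is mm9, so these positions are not those of the study's files. F3 lies at chr3:121723287-121723586 on the plus strand and Serpine2 at chr1:79858616-79858915 on the minus strand. The RefSeq start of F3 is also its GENCODE M21 start, whereas that of Serpine2 lies inside the GENCODE gene, so this window is not upstream of the longest annotated Serpine2 span. Capitals mark GGGCGG on either strand (CCGCCC where it is on the other one), the letters of the GC box, and TGANTCA, the letters of the AP-1 element.
F3: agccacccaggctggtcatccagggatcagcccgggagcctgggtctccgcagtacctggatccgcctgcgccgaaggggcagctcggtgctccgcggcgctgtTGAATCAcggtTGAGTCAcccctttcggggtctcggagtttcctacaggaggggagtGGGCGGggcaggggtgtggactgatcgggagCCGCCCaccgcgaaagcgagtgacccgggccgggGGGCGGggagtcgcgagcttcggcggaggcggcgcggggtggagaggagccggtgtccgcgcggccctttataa
Serpine2: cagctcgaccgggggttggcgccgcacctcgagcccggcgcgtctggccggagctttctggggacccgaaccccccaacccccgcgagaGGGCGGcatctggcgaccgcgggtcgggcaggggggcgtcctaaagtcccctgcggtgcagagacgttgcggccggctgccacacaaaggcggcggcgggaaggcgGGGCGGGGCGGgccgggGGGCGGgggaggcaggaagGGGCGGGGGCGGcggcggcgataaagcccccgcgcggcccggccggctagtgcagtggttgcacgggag
The F3 window is 70.3% G or C and holds TGANTCA at 146 and 135 bases before the start, a palindrome that reads on both strands, and GGGCGG at 89, 58 and 24 bases before it. The Serpine2 window is 77.7% G or C and holds GGGCGG at 161, 55, 50, 38, 19 and 13 bases before the start, with those at 55 and 50 overlapping each other, and no TGANTCA. Of the 32851 windows in the RefSeq set, 35.7% hold GGGCGG and 7.81% hold TGANTCA on either strand. The letters are a description of these windows and not of binding. Windows were also found for Procr, Tfpi, F8 and Anxa2.

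F3, at chromosome 3:121723537-121735048 (plus strand), encodes tissue factor. It ran from 280 through 1203 to 2493 in old samples and from 60.6 through 228 to 1789 in young samples. Young 9 was far above the other young samples, of which the highest had 312, and old 4 lay among the young ones. All 6 old samples lay above the young median. The means were 1207 ± 772 and 455 ± 661 (SD, n = 6 each), and the log2 difference was 2.04 (SE 0.67, interval 0.61 to 3.46), a 4.10-fold difference that did not pass over all genes (limma adjusted p = 0.0791; exact permutation p = 0.0411). By edgeR the difference was 1.41 (adjusted p = 0.258). Without young 9 it was 2.62 (limma adjusted p = 0.00671), without old 4 it was 2.397 (adjusted p = 0.0373), and without the 3 low-slope samples 2.48 (adjusted p = 0.0297). It did not pass when any of the other 10 samples was left out, the smallest difference being 1.64 without young 5 (limma adjusted p = 0.168).

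The F3 level followed the astrocyte markers. Their summed count was 17521, 29309, 48811, 12213, 30858 and 17452 in old 1, 2, 3, 4, 7 and 9, and 8072, 10498, 7109, 9845, 7009 and 39986 in young 1, 2, 3, 4, 5 and 9. Old 3 and young 9 were the highest of their ages for the markers and for F3. Of the 12 markers 12 had a positive log2 difference (median 2.09) and 2 passed, Aldoc (2.22, limma adjusted p = 0.0447) and Slc14a1 (3.84, adjusted p = 0.047), the latter at 0 in at least 1 young sample. Over all genes tested 3.73% passed higher in old. An unadjusted p under 0.05 (limma) was found for 11 of the 12 markers, beside 3043 of all 12777 genes tested. F3 and the sum, both on the log2 scale, had a Pearson r of 0.96 and a Spearman rho of 0.97 over the 12 samples (permutation p = 2e-05 for each, the smallest that this many permutations can give; adjusted p = 0.00024 for r over 12 relations), and r of 0.96 without old 3 and young 9. Within the old samples r was 0.94 (exact permutation p = 0.0111, adjusted p = 0.0411) and within the young samples 0.95 (exact permutation p = 0.00278, adjusted p = 0.0167). With the mean log2 level of the markers as a covariate beside age, the F3 difference was -0.10 (limma adjusted p = 0.948). Age and astrocyte marker level moved together, so for F3 they cannot be told apart here.

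**Figure D3:**
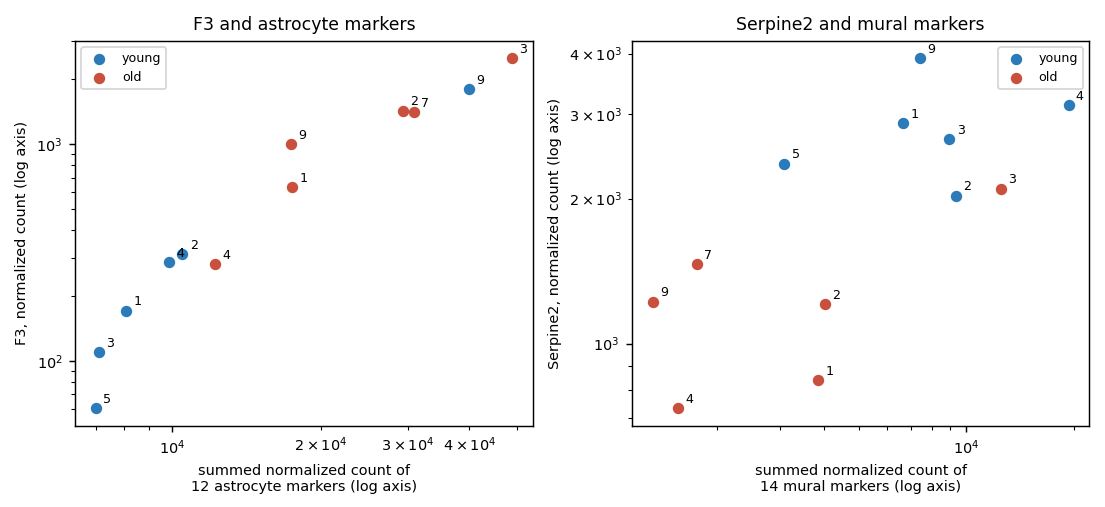
Left, normalized count of F3 against the summed normalized count of 12 astrocyte markers; right, Serpine2 against the sum of 14 pericyte and smooth muscle markers, all axes logarithmic, young in blue and old in red with title numbers. F3 is higher in samples with a higher astrocyte sum in both ages, whereas for Serpine2 a relation within an age was not detected (n = 6 each).

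The ratio of Tfpi to F3, inhibitor to initiator, had a geometric mean of 1.02 in old and 4.57 in young samples. It ran from 0.361 to 2.98 in old and from 0.865 to 12.4 in young, with young 9 as the lowest young sample. The log2 difference was -2.16 (exact permutation p = 0.0195, adjusted p = 0.026 over 4 ratios). F3 alone had a log2 difference of 2.04 and Tfpi alone one of -0.13, and neither passed over all genes tested (limma). The ratio thus mostly restates the F3 difference. Young 9 was also the young sample with the highest astrocyte marker sum, and the part of those markers in the ratio was not tested.

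Serpine2, at chromosome 1:79794197-79861180 (minus strand), encodes protease nexin 1, an inhibitor of thrombin and of plasminogen activators that glia and smooth muscle also make. It ran from 735 through 1214 to 2096 in old samples and from 2027 through 2764 to 3912 in young samples. Old 3, the highest old sample, overlapped young 2, the lowest young one, and the other 5 old samples lay below every young sample. The means were 1260 ± 489 and 2825 ± 656 (SD, n = 6 each). Serpine2 fell by 1.22 on the log2 scale (SE 0.22, interval -1.70 to -0.74, limma adjusted p = 0.00424; exact permutation p = 0.00433). By edgeR it fell by 1.16 (adjusted p = 0.00788), and without the 3 low-slope samples it fell by 1.21 (limma adjusted p = 0.0165).

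Markers of pericytes and smooth muscle moved the same way as Serpine2. Of 13 tested none had a positive log2 difference (median -1.44), and 2 passed, the contractile genes Acta2 (-1.63, limma adjusted p = 0.0323) and Myh11 (-2.10, adjusted p = 0.0287). Over all genes tested 3.21% passed lower in old. An unadjusted p under 0.05 (limma) was found for 8 of the 13, beside 3043 of all 12777 genes tested. The summed level of the markers ran from 1320 to 12531 in old and from 3088 to 19363 in young samples, with Anpep and Abcc9 at 0 in some old samples and Cnn1 under the minimum for testing. Old 3 was the highest old sample for these markers and for Serpine2, and also for the astrocyte markers. Young 9, the highest sample for Serpine2, was the highest young sample for astrocyte markers, while young 4 was the highest for mural markers. Over 12 samples r was 0.70 (permutation p = 0.0137, adjusted p = 0.0411) and rho 0.63 (permutation p = 0.0329), and r was 0.66 without the 2 samples farthest from the median. Within ages a relation was not detected, where r was 0.57 in old (exact permutation p = 0.247) and 0.26 in young (exact permutation p = 0.689). With 6 samples in each age these values cannot show that it is absent. With the marker score as a covariate beside age the Serpine2 difference was -0.89 and did not pass (limma adjusted p = 0.0886). With the astrocyte score in its place it was -1.75 and passed (limma adjusted p = 0.00154).

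Plat, at chromosome 8:22757727-22782844 (plus strand), encodes tissue plasminogen activator. It ran from 26107 through 37674 to 44050 in old and from 32712 through 44972 to 52714 in young samples. All 6 old samples lay below the young median, yet the groups overlapped, since old 9 exceeded 3 young samples. The means were 36177 ± 6387 and 44250 ± 7142 (SD, n = 6 each), with a log2 difference of -0.29 (interval -0.60 to 0.01), and it did not pass (limma adjusted p = 0.222; exact permutation p = 0.0758).

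The ratio of Plat to Serpine2, protease to inhibitor, was higher in old samples. Its geometric mean was 30.1 in old and 15.8 in young, and it ran from 19.0 to 49.3 and from 10.96 to 22.3. The log2 difference was 0.93 (exact permutation p = 0.0108, adjusted p = 0.0216 over 4 ratios). Without the 3 low-slope samples it was 0.80 and did not pass (exact permutation, adjusted p = 0.0741).

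Anxa2, at chromosome 9:69453620-69491795 (plus strand), encodes annexin A2, which with S100a10 holds plasminogen and its activator at the cell surface. It ran from 13726 through 19197 to 25208 in old and from 14118 through 16470 to 18619 in young samples. Old samples 1, 7 and 9 lay above every young sample and old 3 below every one. The log2 difference was 0.21 (interval -0.08 to 0.49, limma adjusted p = 0.37), and 0.02 without the 3 low-slope samples. An annotated antisense gene overlaps Anxa2, and without strand its reads cannot be told apart.

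**Figure D4:**
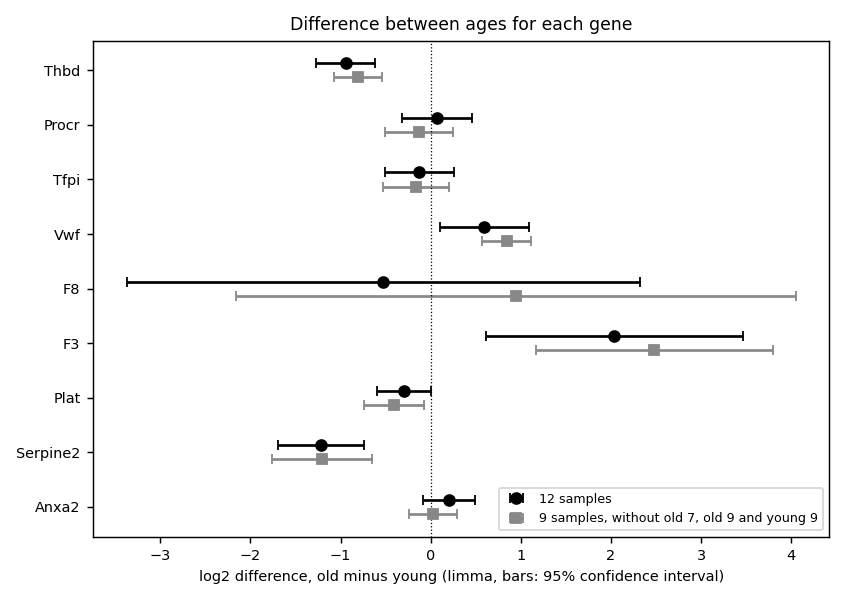
Log2 difference of old minus young for each of the 9 genes (limma), with 95% confidence intervals, over 12 samples (black circles) and over 9 samples without old 7, old 9 and young 9 (grey squares). The intervals of Thbd, Vwf, F3 and Serpine2 lie on one side of 0 in both, and that of F8 spans more than any other.

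Per kilobase of exon, the genes covered a wide range of levels. Plat (14328 in old and 17525 in young) and Anxa2 (13260 and 11309) had the highest mean normalized counts per kilobase. Their ranges overlapped in old samples, whereas in young ones Plat (12955 to 20877) lay just above Anxa2 (9756 to 12867). Thbd had 3791 and 7263 and Vwf 2966 and 1892. Between the samples Thbd ran above Vwf without overlap in young, 5749 to 9671 against 1276 to 2305, whereas in old they overlapped, 2808 to 4542 against 1511 to 3915. Serpine2 (570 and 1278), Procr (766 and 703) and F3 (645 and 243) came next by mean. In old samples the ranges of these 3 overlapped, and in young samples Serpine2 lay above Procr without overlap, 917 to 1770 against 601 to 804. Tfpi was at 193 and 212 and F8 at 1.57 and 1.39. F3 and Tfpi overlapped in both ages, in young samples at 32.4 to 955 against 144 to 292. Young 9 held the highest young F3 value, and the young order of F3 and Tfpi by mean rests on that sample. Lengths are those of the GENCODE M21 exon union, which may differ from the annotation behind the table.

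Each of the 7 wider lists of the system held at most 1 gene that passed, beside 6.94% of all genes tested, and nothing particular to the lists is read from these counts. For the unadjusted counts given below, 3043 of all 12777 tested genes had a p under 0.05. Of 29 coagulation factors and their inhibitors 9 were tested, and none passed (limma; 3 had an unadjusted p under 0.05). Their median log2 difference was -0.14 and the smallest p belonged to Ggcx, the carboxylase that matures vitamin K dependent factors (2181 ± 129 in old and 2569 ± 179 in young, log2 difference -0.24, limma adjusted p = 0.1). By edgeR its adjusted p was 0.12.

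Of 9 thrombin and protease receptors 7 were tested and 1 passed, with a median log2 difference of 0.01. Lrp8, a lipoprotein receptor family member that binds reelin and apolipoprotein E, was lower in old, at 7869 ± 1684 against 13796 ± 3294 (SD, n = 6 each), a log2 difference of -0.81 (limma adjusted p = 0.00799). Every old sample lay below every young one, and without the 3 low-slope samples the difference was -0.66 (limma adjusted p = 0.0283).

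Of 18 genes of plasminogen activation and its control 10 were tested and 1 passed, with a median of 0.20. Serpini1, which encodes neuroserpin, an inhibitor of tissue plasminogen activator, was higher in old at 701 ± 227 against 319 ± 73.8 (SD, n = 6 each), and the groups did not overlap. Its log2 difference was 1.10 (limma adjusted p = 0.00606; edgeR adjusted p = 0.00603), opposite in sign to that of Serpine2, and 0.85 without the 3 low-slope samples (limma adjusted p = 0.038). The annexin A2 partner S100a10 had a log2 difference of 0.60 that did not pass (adjusted p = 0.0598, limma). Plau, the urokinase gene, reached at most 5.14 normalized counts in any sample and was not tested.

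Of 21 genes of von Willebrand factor storage, cleavage and partners 17 were tested and 1 passed, lower in old, with a median of -0.04. Angpt2, an angiopoietin stored with von Willebrand factor, had a log2 difference of 0.73 that did not pass (limma adjusted p = 0.0752).

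Of the transcription factors known to act at the Thbd gene 9 of 9 were tested and none passed (6 had an unadjusted p under 0.05). Their median was -0.27, with 2 of 9 above 0. Mef2a had the smallest p (6502 ± 1166 in old and 8724 ± 1396 in young, log2 difference -0.43, limma adjusted p = 0.0708; edgeR adjusted p = 0.0895). The flow-responsive factors Klf4 and Klf2 had log2 differences of -0.41 (limma adjusted p = 0.0984) and -0.45 (adjusted p = 0.141). Mef2c and Nfe2l2 had positive log2 differences, 0.27 (limma adjusted p = 0.116) and 0.12 (adjusted p = 0.599). None of 5 tested genes of platelet restraint and none of 8 tested glycosaminoglycan enzymes passed (limma; 2 and 1 had an unadjusted p under 0.05), with medians of 0.43 and -0.26. Their smallest p values belonged to Entpd1, an ectonucleotidase (-0.24, limma adjusted p = 0.147), and Hs3st1, a sulfotransferase for the antithrombin-binding site (0.41, adjusted p = 0.148).

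**Figure D5:**
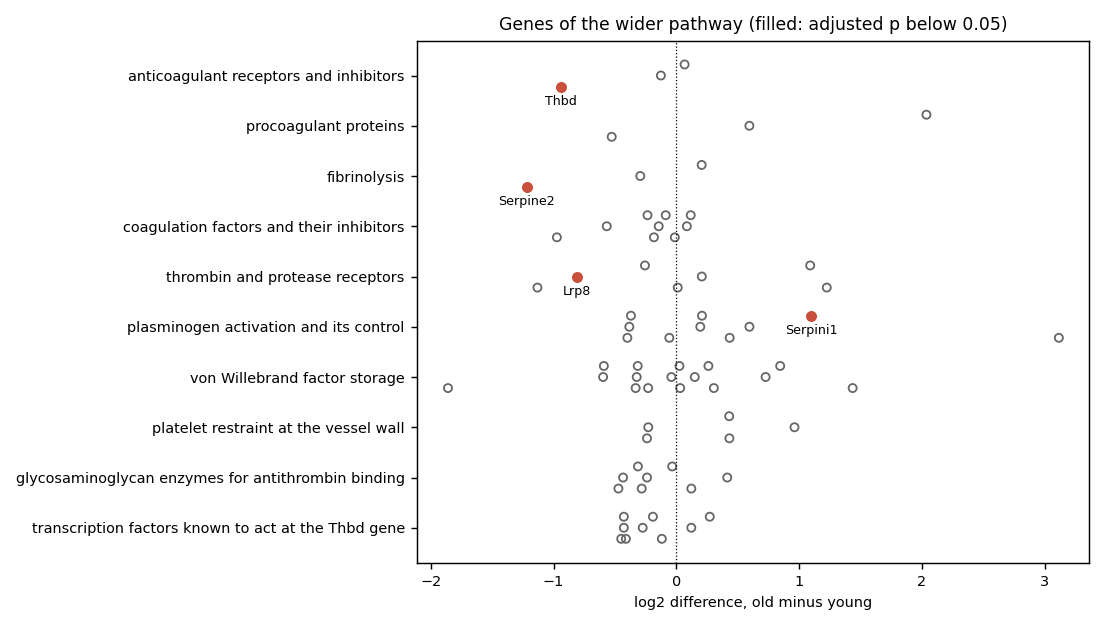
Log2 difference of old minus young for the 9 genes described and the tested genes of 7 wider lists that are reported here, 1 row a list; filled red points passed the test (limma, adjusted p below 0.05). Thbd, Serpine2 and Lrp8 lie below 0 and Serpini1 above it.

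The genes whose sample-to-sample pattern was most like each of 4 members were found by Pearson r of log2 values after the mean of each age was subtracted, over 12 samples and 10360 genes. For Thbd these were Plcg1 (0.97), Iqgap1 (0.97) and Ampd3 (0.96). For Vwf they were Axin1 (0.97), Dag1 (0.97) and Usp25 (0.96). For F3 they were Acsbg1 (0.98), Gpm6a (0.98) and Mmd2 (0.97), and for Serpine2 Gpm6b (0.90), Vegfa (0.89) and Mobp (0.88). Among the members themselves Procr and Anxa2 (0.80), Thbd and Vwf (0.79), Tfpi and F3 (0.73), and F3 and Serpine2 (0.73) were most alike, and Thbd and Tfpi ran opposite (-0.78). All of these values share their libraries, and none was computed without the low-slope samples. Thbd and Vwf were both lowest in old 7 and old 9 among old samples and in young 9 among young ones. Young 9 was the highest young sample for Tfpi, F3 and Serpine2. Procr and Anxa2 were both lowest in old 3 and highest in old 7. How far single samples carry these values was not tested.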

How the data were processed

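RNA of 12 brain endothelial samples was sequenced (SMART-seq v4 cDNA and Nextera XT libraries, per the labels' protocols). The submitters' processing notes list the build mm9 and the tools STAR 2.4.2a, FastQC 0.11.2, R 3.2.2 and Cuffdiff 2.2.1. Which program counted reads, and on which annotation, is not given in the sources used here. In this series the authors deposited 1 table whose values are a signal per gene, named normalized counts. Division of each column by its smallest value above 0 gave whole reads for 100% of values (within 0.001), and the implied size factors equalled median-of-ratios factors in 12 of 12 samples (within 1e-06).

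Old and young were compared on log2(value + 1) with limma 3.58.1 in R 4.3.3 (trended variance, Benjamini-Hochberg over the 12777 genes with a mean of at least 10, threshold 0.05). The design fixed a test for normalized values, so the count test is the alternative: edgeR 4.0.16 on recovered reads (761 of 12580 genes passed, 6.05%), and DESeq2 1.42.0. A fold on the log2(value + 1) scale understates changes of low genes. Single values were tested with two-sided permutation tests, exact over the 924 labelings for 6 against 6 samples and with 100000 resamples for relations over 12 samples. Relations with GC slope and marker sums were computed after the values were seen. GC content is that of the longest GENCODE M21 transcript, matched for 12695 genes (99.4%). Scripts were tested on simulated data. Reads carry no molecular identifiers, so limits on counts of 0 cover counting error only. Replicates differed by more than sampling noise in every pair (lowest chi-square per degree of freedom 34.0).

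The members and gene lists were chosen with earlier results of these data known. Named were all members, up to 4 passing genes of each list or its gene of smallest p, and 3 genes most like each of Thbd, Vwf, F3 and Serpine2; S100a10, Angpt2, Klf4, Klf2 and Plau were named after their values were seen. Some list genes that the rule would name are not reported here. For each result up to 30 other settings were tried, 3 of them added after seeing the data: a term for the 3 low-slope samples, the GC slope as a covariate, and leaving out old 3 and young 9. Leaving out the low-slope samples is not among those 3, though the samples were chosen by slopes computed from these data.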

Additional observations from a re-analysis of the deposited data

Results flagged for a closer look

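F3 in young 9 stood apart from its group. Its normalized count was 1789, while the other 5 young samples ran from 60.6 to 312, a gap larger than a test for a single outlying value allows in a group of 6. That test used linear counts, whereas F3 was compared between ages on the log2 scale, on which this flag was not examined. Young 9 was also the young sample with the highest astrocyte marker sum, 39986 against 7009 to 10498 in the others, and the part of those markers in its F3 value was not tested beyond the relation given above. It was the 1 flag among 26 groups examined, and chance flags about 1 in 20 groups.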

How the results depend on the processing

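Plat and Anxa2 kept their direction and their side of the threshold under all 30 alternatives run. The ratio of Tfpi to F3 did so under its 15, which were other pseudocounts and samples left out. No ratio was run with a marker score as a covariate, with a count test or with the replicate block. Thbd and Serpine2 each lost the call under 1 of 30, with the astrocyte score as a covariate (Thbd -0.76) and with the mural score (Serpine2 -0.89). With each sample left out in turn, their log2 differences ran from -1.005 to -0.85 and from -1.38 to -1.08 and both stayed past the threshold. Vwf passed with sample weights (0.78), DESeq2 (0.65), the replicate block (0.77), without the 3 low-slope samples (0.85), with a term for them (0.75) and with the GC slope as a covariate (0.62), the last 2 added after seeing the data; leaving out single samples gave 0.49 to 0.77, and without old 9 it passed (adjusted p = 0.0323, limma). F3 passed with sample weights (2.12), without the 3 samples (2.48) and without old 3 and young 9 (2.35), gave 1.64 to 2.62 with single samples left out, and turned to -0.10 with the astrocyte score. Procr turned negative under the replicate block (-0.063), the mural score (-0.28) and without the 3 samples (-0.13), and ran from -0.068 to 0.23 with single samples left out. Tfpi was 0.0049 without old 3 and young 9. F8, not tested at a mean of at least 100, turned positive with sample weights (0.88), edgeR (0.15, and 0.16 without a filter), DESeq2 (0.16), the replicate block (0.42), the mural score (0.68) and without the 3 samples (0.94). Without those samples the ratios of Thbd to Procr (-0.68) and Plat to Serpine2 (0.80) lost their calls and that of F8 to Vwf turned to 0.10. The count of genes past the threshold, 887, was 1380 with sample weights, 1407 with DESeq2, 227 with the astrocyte score, 234 with the mural score and 554 to 1227 with single samples left out, lowest without young 4. The cause was not tested. Over all tested genes, samples that share a title number did not deviate together (correlations -0.16 to 0.10 over 5 numbers). Their GC slopes (old, then young) were 0.13 and 0.11 for number 1, and -0.18 and -0.16 for number 9. For numbers 2, 3 and 4 they were 0.04 and -0.03, 0.05 and 0.05, and 0.02 and 0.07. The slopes of numbers 1, 3 and 9 were thus alike across ages. The labels do not state what the numbers mean, and samples are paired only in the replicate block. With that block Thbd was -0.77 (limma adjusted p = 0.00593). Other scalings moved the median of all genes by -0.02 (quantile) and 0.01 (TMM). Depth limits F8, with at most 59 reads in a sample.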

Other observations

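Some markers of arterial, venous and capillary endothelium also differed between ages, and whether the vessels sampled or the RNA per cell differed cannot be told apart. Beside the counts below, 3.73% of all genes tested passed higher and 3.21% lower in old. Of 14 arterial markers 9 had a positive log2 difference (median 0.26) and 4 were higher in old samples past the threshold: Alpl (log2 difference 0.86), Mgp, a calcification inhibitor (1.23), Gkn3 (0.85) and Bmx (0.62), with limma adjusted p from 0.000545 to 0.0493. Of 11 venous markers 3 were lower in old samples: Aplnr, the apelin receptor (28.1 ± 39.1 in old and 678 ± 166 in young, SD, n = 6 each, limma adjusted p = 0.00142), the amino acid carrier Slc38a5 (-0.69, adjusted p = 0.00347) and the adhesion molecule Icam1 (-0.87, adjusted p = 0.0199). Of 9 capillary markers 3 were lower: Tfrc, through which transferrin enters (-0.81), Mfsd2a, which carries lysophospholipids (-0.76), and Ivns1abp (-1.23), with limma adjusted p from 0.00294 to 0.031.

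Of 7 tested fibroblast markers Ogn was lower in old samples (2.95 ± 4.61 against 41.9 ± 27.1, SD, n = 6 each, limma adjusted p = 0.00817). None of the tested markers of microglia (10), neurons (4), oligodendrocytes (6), platelets (6) or red cells (2) passed (limma). At an unadjusted p under 0.05 there was 1 microglial marker and none of the others. F2r, the thrombin receptor PAR1, had 122 ± 49.1 normalized counts in the old group and 251 ± 83.4 in the young group (SD, n = 6 each), and its log2 difference of -1.13 did not pass (limma adjusted p = 0.0651; edgeR adjusted p = 0.08). F2r was named after its values were seen.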
